A study of Homo sapiens with 18 samples.

Results

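The genes described here encode the proteins of box H/ACA small nucleolar ribonucleoproteins (H/ACA snoRNPs), the particles that turn uridine into pseudouridine in ribosomal RNA. They are 4 core proteins, DKC1, NHP2, GAR1 and NOP10, and 2 assembly factors, NAF1 and SHQ1, picked by gene symbol from the poly(A) RNA table. All 6 symbols were found among its 47021 genes, once each, and all 6 were among the 14732 genes with enough counts to test. The libraries came from DLD1 cells, an established line derived from a human colorectal adenocarcinoma. Controls, labelled wild type, carried a control CRISPR guide (sgC). The libraries labelled ZNF692 knockout carried guide 1 (sgZ1) or guide 3 (sgZ3) against ZNF692, a zinc-finger gene. Each guide had 3 poly(A) libraries. Cells of all groups were grown in DMEM with 5% serum, penicillin and streptomycin, received lentivirus and were selected with 10 µg/ml puromycin. The labels do not say whether a line was 1 clone or a pool, or that replicates were separate cultures. Every p-value below therefore reflects the scatter among these libraries alone, and that scatter may be technical.

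In an H/ACA particle a guide RNA pairs with its target and places 1 uridine in the active site of DKC1 (dyskerin), the pseudouridine synthase. NHP2, NOP10 and GAR1 complete the core, and the same proteins bind the H/ACA domain of telomerase RNA, which is why inherited defects in several of them cause the telomere disease dyskeratosis congenita. During assembly SHQ1 holds newly made DKC1, and NAF1 occupies the place that GAR1 takes in the mature particle. Dividing cancer cells make these particles together with new ribosomes.

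Total counts per library ran from 16044224 to 24535642. Levels are given as CPM, counts per 1000000 of the library's total, with totals scaled by TMM, a method that centres most genes on no change. ZNF692 mRNA stood at 6.18 to 7.01 CPM in sgC, 9.64 to 11.5 CPM in the libraries labelled sgZ1 and 6.29 to 8.08 CPM in those labelled sgZ3. Neither group labelled knockout had less of it than sgC, so this mRNA does not check those labels, and directions below are given by library label. Of 12 markers of colorectal epithelium, 10 or 11 were at 1 CPM or more in every library, with CDX1 under 1 CPM throughout and CEACAM5 at 0 in 1 library. Their summed level was 9150 to 10200 CPM in sgC, 8830 to 9700 CPM in sgZ1 and 11000 to 11900 CPM in sgZ3. Of the 11 tested, 5 were called lower and 0 higher in sgZ1, where 10.3% of all tested genes were called lower. In sgZ3, 3 were called higher and 0 lower (19.2% of all genes were higher). Between guides 7 were higher and 0 lower in sgZ3 than in sgZ1 (12.8% of all genes were higher). The part of these markers in the changes below was not tested. Of 12 fibroblast and mesenchymal markers, sgZ1 replicate 2 and sgZ3 replicate 3 stood apart, with summed levels of 112 and 119 CPM against 7.44 to 9.84 CPM in the other 7 libraries. VIM was at 22.9 and 21.2 CPM there, while COL1A2, DCN, LUM and FAP stayed under 0.1 CPM in all 9. In bulk RNA fewer cells of a type and less RNA per cell cannot be told apart.

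Per length, NOP10 and NHP2 were the most abundant of these mRNAs, followed by DKC1 and GAR1. Length is the union of all annotated exons of a gene, 554 bases for NOP10 and 1510 for NHP2, and the order depends on it. By CPM alone NHP2 (mean 99.06 in sgC) was above NOP10 (53.86). In sgC, NOP10 stood at 97.2 ± 11.5 CPM per kilobase of exon (SD, n = 3), NHP2 at 65.6 ± 6.03, DKC1 at 42.4 ± 1.27 and GAR1 at 19.5 ± 1.04. The assembly factors were lower, NAF1 at 5.04 ± 0.138 and SHQ1 at 2.74 ± 0.124 CPM per kilobase. This order was the same in sgZ1 and sgZ3, and in each group no library of one gene overlapped those of the next gene in the order. In GRCh38 (GENCODE 29) DKC1 lies on chromosome X from 154762742 to 154777689 (plus strand), NHP2 on chromosome 5 from 178149460 to 178153967 (minus), GAR1 on chromosome 4 from 109815510 to 109824740 (plus) and NOP10 on chromosome 15 from 34341713 to 34343177 (minus). NAF1 lies on chromosome 4 from 163110073 to 163166921 (minus) and SHQ1 on chromosome 3 from 72749277 to 72861914 (minus). All 6 are protein coding.

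DKC1, the synthase itself, was higher with both ZNF692 guides. It stood at 172, 183 and 179 CPM in sgC, at 232, 271 and 237 CPM in sgZ1 and at 272, 251 and 272 CPM in sgZ3 (replicates 1, 2 and 3). All 6 libraries of the ZNF692 guides lay above all 3 of sgC, and the 2 guides overlapped each other. Against sgC the log2 fold change was 0.47 for sgZ1 (SE 0.0875, adjusted p = 0.00207) and 0.57 for sgZ3 (SE 0.0876, adjusted p = 0.00085) in edgeR's quasi-likelihood F test, Benjamini-Hochberg adjusted over all tested genes. A gene is called where that adjusted p is under 0.05. The mean of both guides was 1.44-fold that of sgC (95% interval 1.28 to 1.61, adjusted p = 0.000698). The exons of DKC1 overlap those annotated for the H/ACA RNAs SNORA36A and SNORA56 on the same strand, and these RNAs were not analysed here.

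NHP2, the core protein that binds the upper stem of the guide RNA, was also higher with each guide. Its levels were 95.03, 110 and 92.7 CPM in sgC, 123, 163 and 139 CPM in sgZ1 and 174, 168 and 140 CPM in sgZ3. The lowest library of the ZNF692 guides, sgZ1 replicate 1, was above the highest sgC library. The log2 fold change was 0.52 in sgZ1 (SE 0.124, adjusted p = 0.0094) and 0.70 in sgZ3 (SE 0.124, adjusted p = 0.00179). With sgC replicate 1 left out the sgZ1 call ended (adjusted p = 0.0546), as it did with sgC replicate 3 left out (0.0501). Offsets for gene length and GC content lowered the value to 0.29 in sgZ1 and to 0.40 over both guides (0.61 without them), still called. NHP2 exons share 414 bases with exons of RMND5B on the opposite strand, and the strand setting of counting is not given in the sources used here. RMND5B itself stood at 57.6 ± 1.3 CPM in sgC, at 54.8 ± 3.75 CPM in sgZ1 and at 60.9 ± 11 CPM in sgZ3 (SD, n = 3). Its log2 fold change over both guides was 0.0047 (SE 0.108). Among annotated NHP2 pseudogenes, NHP2P1 had at most 5 counts in a library and NHP2P2 had 0.

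NOP10, the smallest core protein, which contacts the catalytic domain of DKC1, moved in the same direction with a wider spread. It stood at 51.3, 61.1 and 49.1 CPM in sgC, at 64.7, 82.1 and 75.0 CPM in sgZ1 and at 99.1, 97.4 and 67.6 CPM in sgZ3. All 6 libraries were above sgC, by the smallest margin in sgZ1 replicate 1 and sgZ3 replicate 3. The log2 fold change was 0.71 in sgZ3 (SE 0.152, adjusted p = 0.00465). In sgZ1 it was 0.46 (SE 0.151, adjusted p = 0.0428), a call lost under 7 of 21 alternatives, including without sgC replicate 1 (adjusted p = 0.153), sgC replicate 3 (0.155), sgZ1 replicate 2 (0.113), sgZ1 replicate 3 (0.115) or sgZ3 replicate 2 (0.0525). Over both guides the fold was 1.499 (95% interval 1.22 to 1.83, adjusted p = 0.0071), lost only without sgC replicate 1 among 20 alternatives (adjusted p = 0.0504).

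GAR1, the core protein that joins last, was not called in any of the 4 comparisons. Its levels were 40.8, 37.5 and 41.5 CPM in sgC, 54.6, 37.3 and 56.8 CPM in sgZ1 and 43.8, 41.5 and 40.7 CPM in sgZ3. In sgZ1 replicates 1 and 3 it was above the remaining libraries and in sgZ1 replicate 2, with VIM at 22.9 CPM, below every other library. sgZ3 overlapped sgC. The log2 fold change was 0.31 in sgZ1 (95% interval 0.01 to 0.61, adjusted p = 0.123) and 0.07 in sgZ3 (-0.23 to 0.38, adjusted p = 0.72), and the sgZ3 value changed sign with library totals alone (-0.09). Without sgZ1 replicate 2, GAR1 was called higher in sgZ1 (0.47, adjusted p = 0.00378) and over both guides (0.25, adjusted p = 0.0276), which was 0.19 with all libraries (adjusted p = 0.244). The part of the mesenchymal transcripts in this difference was not tested.

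**Figure D1:**
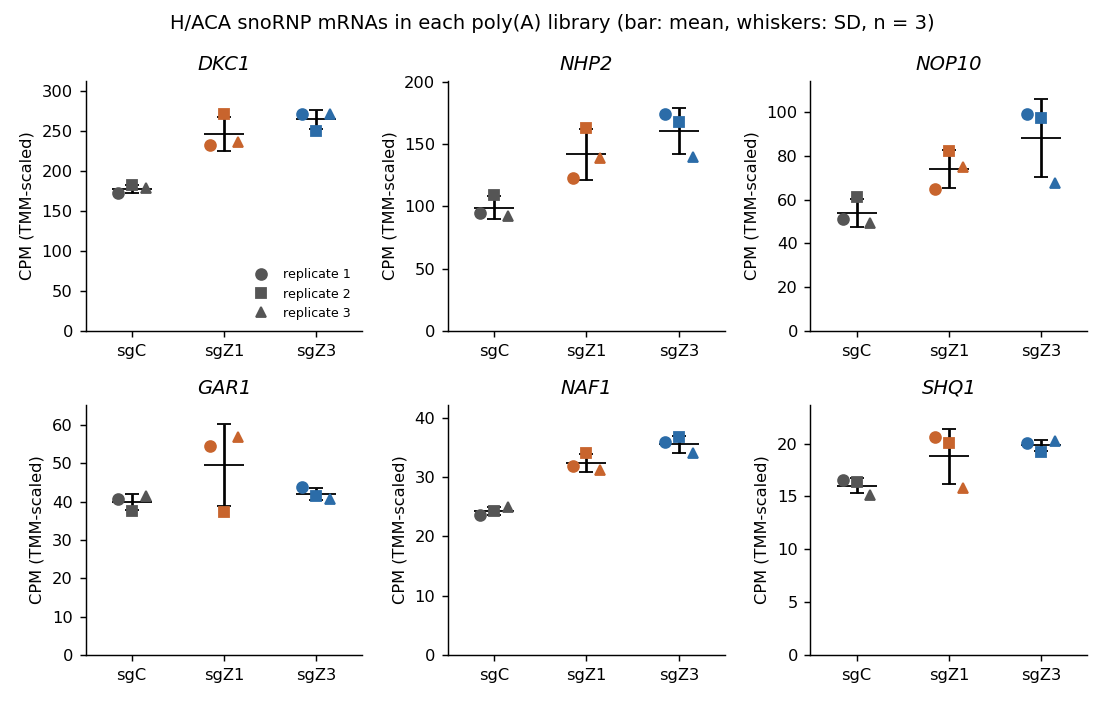
Level of each H/ACA gene in each poly(A) library, as TMM-scaled CPM on linear axes from 0 with a different range per panel; points are libraries, with a marker shape for each replicate number, bars are group means and whiskers SD (n = 3). For DKC1, NHP2, NOP10 and NAF1 all sgZ1 and sgZ3 points lie above all sgC points, and GAR1 in sgZ1 splits into libraries at 54.6 and 56.8 CPM and 1 at 37.3 CPM.

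NAF1, the assembly factor that GAR1 replaces, was higher with both guides, with a coefficient of variation of 2.74% to 4.68% within groups. It stood at 23.6, 24.3 and 24.9 CPM in sgC, at 31.9, 34.1 and 31.2 CPM in sgZ1 and at 35.9, 36.7 and 34.0 CPM in sgZ3. No library of either guide overlapped sgC. The log2 fold change was 0.42 in sgZ1 (SE 0.0894, adjusted p = 0.0049) and 0.55 in sgZ3 (SE 0.0898, adjusted p = 0.0012), and both calls held under all 21 alternatives run for each.

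SHQ1, the chaperone of DKC1, had the lowest counts, 296 to 489 per library. It stood at 16.5, 16.3 and 15.2 CPM in sgC, at 20.6, 20.02 and 15.8 CPM in sgZ1 and at 20.03, 19.3 and 20.3 CPM in sgZ3. All sgZ3 libraries lay above sgC, while sgZ1 replicate 3 lay within the sgC range. The log2 fold change was 0.23 in sgZ1 (SE 0.118, adjusted p = 0.169), 0.31 in sgZ3 (SE 0.119, adjusted p = 0.0581) and 0.27 over both guides (SE 0.103, adjusted p = 0.0612), none of them called. Over both guides it was called with DESeq2 (adjusted p = 0.0476), without sgZ1 replicate 3 (0.0167) and with offsets for gene length and GC content (0.00447, or 0.0019 once the replicate number was added). Of 21 alternatives 3 called it in sgZ1 and 6 in sgZ3.

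Over the mean of both guides 4 of the 6 genes were therefore called higher, 3 of the 4 core genes and 1 of the 2 assembly factors, and 0 lower. Among all genes tested 18.6% were called higher and 33.2% in either direction. The median log2 fold change of the 6 was 0.50, against 0.008 over all tested genes. In sgZ1 alone 4 of 6 were called higher (of all genes 15.5% were called higher and 25.8% in either direction). In sgZ3 alone the same 4 were called higher (of all genes 19.2% higher, 17.1% lower and 36.3% in either direction). These comparisons share the sgC libraries. The 4 called genes had every sgZ1 and sgZ3 library above every sgC library, as 11.9% of all tested genes did. In sgZ3 alone SHQ1 joined them, where 25.8% of all genes had every library above sgC and 26.6% every library below. Library totals alone lowered the median of all genes to -0.093 over both guides and to -0.173 in sgZ3, and the same 4 genes were still called higher with them in each of these comparisons. Of all calls over both guides 56% were higher, against 45.9% with upper-quartile factors and 36.6% with library totals alone. In sgZ1 60% were higher, and 35.6% with length and GC offsets. In sgZ3 52.9% were higher. That share was 29.6% with library totals alone and 41.5% after upper-quartile scaling, but 60.9% with length and GC offsets.

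**Figure D2:**
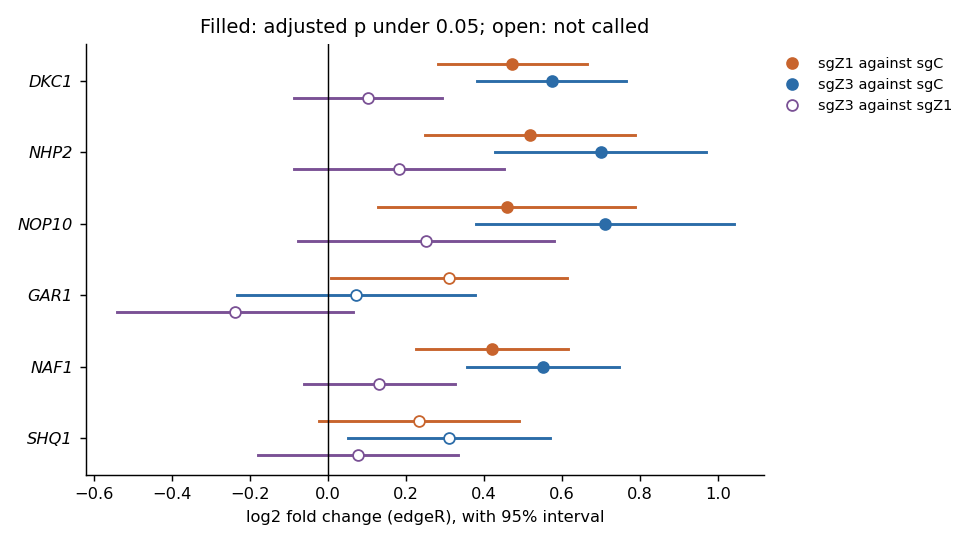
Log2 fold changes of the 6 genes with 95% intervals for each guide against sgC and for sgZ3 against sgZ1; filled points have an edgeR adjusted p under 0.05. DKC1, NHP2, NOP10 and NAF1 are filled for both guides, and no gene is filled for the difference between guides.

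The guides were compared directly, and 0 of the 6 genes were called between sgZ3 and sgZ1 (28.6% of all tested genes were, 12.8% higher and 15.8% lower in sgZ3). For 0 of the 6 was every sgZ3 library above every sgZ1 library, as it was for 17.2% of all genes. With an unadjusted p the count under 0.05 was also 0, and DESeq2 called 0. The log2 difference, sgZ3 minus sgZ1, was 0.10 for DKC1 (95% interval -0.09 to 0.29), 0.18 for NHP2 (-0.09 to 0.45), 0.25 for NOP10 (-0.08 to 0.58) and -0.24 for GAR1 (-0.54 to 0.06). It was 0.13 for NAF1 (-0.06 to 0.32) and 0.08 for SHQ1 (-0.18 to 0.33). For NOP10 the interval reached 0.58, beyond its sgZ1 change of 0.46 against sgC. The libraries with VIM at 22.9 and 21.2 CPM stood on opposite sides of their groups for NHP2 and NOP10, sgZ1 replicate 2 as the highest sgZ1 library and sgZ3 replicate 3 as the lowest sgZ3 library. Without these 2 libraries NHP2 (0.35, adjusted p = 0.00284) and NOP10 (0.46, adjusted p = 0.000536) were higher in sgZ3 than in sgZ1, and GAR1 was lower (-0.42, adjusted p = 0.000707). In that fit 53.2% of all genes were called between guides, so 3 of 6 is near the background. Against sgC the 4 calls for each guide held without them, where 39.5% of all genes were called in sgZ1 and 55.3% in sgZ3. GAR1 was also called higher in sgZ1 (0.47, edgeR adjusted p = 0.000125).

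Ratios within a library do not depend on how libraries are scaled, and 3 pairs were followed by their roles. The ratio of GAR1 to NAF1, the mature subunit over the factor it replaces, was 4.07, 3.64 and 3.92 per length in sgC, 4.02, 2.57 and 4.27 in sgZ1 and 2.87, 2.65 and 2.81 in sgZ3. All sgZ3 libraries and sgZ1 replicate 2 were below every sgC library, and sgZ1 replicates 1 and 3 were not. On the log2 scale the mean was 1.95 ± 0.082 for sgC, 1.82 ± 0.402 for sgZ1 and 1.47 ± 0.058 for sgZ3 (SD, n = 3). The ratios were not tested, and how often other pairs of genes separate the groups was not computed. Of single genes 26.6% had every sgZ3 library below every sgC library and 25.8% had every one above. The ratio of DKC1 to SHQ1, the synthase over its chaperone, was 14.5 to 16.4 in sgC, 15.7 to 20.9 in sgZ1 and 18.1 to 18.9 in sgZ3, so that sgZ3 did not overlap sgC and sgZ1 did. Gene length and GC content are not removed by such a ratio. With offsets for them the sgZ3 log2 fold changes against sgC were 0.53 for DKC1 and 0.51 for SHQ1. Without the offsets they were 0.57 and 0.31, a wider gap between these genes. For GAR1 and NAF1 the sgZ3 values were -0.08 and 0.61 with the offsets and 0.07 and 0.55 without, a narrower gap without them. The ratio of NHP2 to NOP10 lay between 0.633 and 0.759 in all 9 libraries, with the highest value in sgZ3 replicate 3 and the sgC range of 0.657 to 0.692 inside that of sgZ3.

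**Figure D3:**
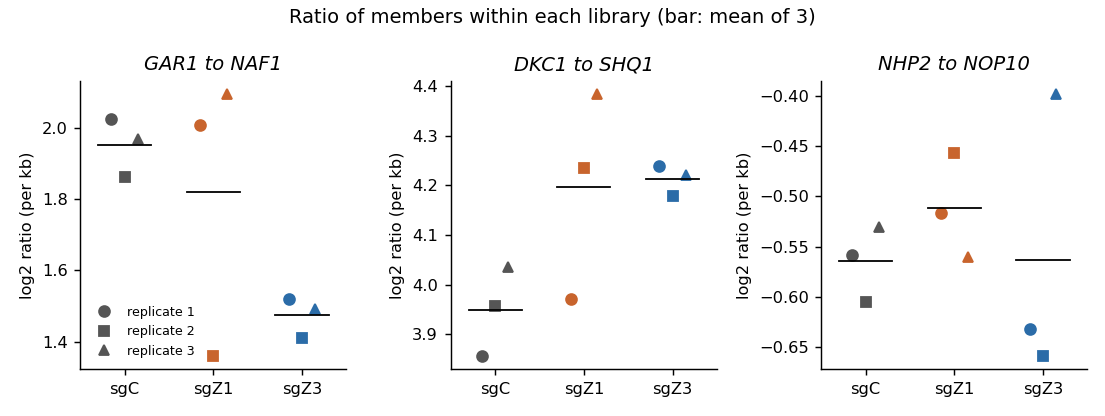
Log2 ratio of 2 H/ACA genes per kilobase of exon within each library, with a different axis range per panel that does not start at 0; bars are means of 3 libraries. For GAR1 to NAF1 the sgZ3 points and sgZ1 replicate 2 lie below the sgC points, while NHP2 to NOP10 overlaps between all groups.

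How alike the genes were across libraries was described by the root mean square difference of their log2 CPM, each gene centred on its own mean over the 9 libraries. Among the 15 pairs of members the closest were DKC1 with NAF1 (0.067) and NHP2 with NOP10 (0.078), and the farthest was GAR1 with NOP10 (0.386). DKC1 differed by a median of 0.306 from the 9250 genes at a mean of 10 CPM or more. Among those genes the closest to DKC1 were RPA1 (0.0424), TPM3 (0.0452) and ORC1 (0.0471), to NHP2 HSPBP1 (0.0382), ENY2 (0.0462) and TBRG4 (0.0472), and to NOP10 SSNA1 (0.0389), BANF1 (0.041) and ANKRD39 (0.0429). The closest to NAF1 were LRRC20 (0.0404), ZBTB9 (0.0466) and JPT2 (0.0522) and to SHQ1 CHN1 (0.0598), FARSB (0.0635) and PTGES3 (0.0668). For GAR1 the closest genes were farther off, IFFO2 (0.0826), EDC4 (0.087) and TFAP4 (0.0871). These distances are descriptions of 9 libraries that share 3 groups.

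Upstream sequence is shown for the 4 core genes, since 3 of them were called higher together and GAR1 was not. Each line gives 250 bases that end just before the start RefSeq gives (GRCh38.p14), 5′ to 3′ on the gene's strand. That start is the GENCODE start for GAR1 but lies 122 bases inside the GENCODE gene for DKC1, 82 for NHP2 and 41 for NOP10, so the last bases shown for those 3 genes fall within the coordinates given above. Positions are chrX:154762614-154762863 (plus) for DKC1, chr5:178153886-178154135 (minus) for NHP2, chr15:34343137-34343386 (minus) for NOP10 and chr4:109815260-109815509 (plus) for the first of the GAR1 starts. Capitals mark matches on either strand to any of 5 short motifs, CACGTG (the E-box bound by MYC and related factors), CCGGAAG (an ETS-type site), TGCGCA (found in NRF1 sites), CCAAT (bound by NF-Y) and GGGCGG (bound by SP1), and neighbouring matches can run together.
DKC1: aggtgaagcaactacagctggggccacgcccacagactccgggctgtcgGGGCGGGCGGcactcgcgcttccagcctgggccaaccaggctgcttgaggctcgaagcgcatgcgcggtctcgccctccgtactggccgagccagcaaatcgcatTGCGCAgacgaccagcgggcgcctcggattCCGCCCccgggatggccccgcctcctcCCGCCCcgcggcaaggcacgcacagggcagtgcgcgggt
NHP2: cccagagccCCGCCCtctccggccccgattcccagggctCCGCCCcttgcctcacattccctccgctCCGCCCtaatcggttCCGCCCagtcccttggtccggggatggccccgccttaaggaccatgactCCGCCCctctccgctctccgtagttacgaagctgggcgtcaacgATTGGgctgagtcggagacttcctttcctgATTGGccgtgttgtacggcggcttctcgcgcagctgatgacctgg
NOP10: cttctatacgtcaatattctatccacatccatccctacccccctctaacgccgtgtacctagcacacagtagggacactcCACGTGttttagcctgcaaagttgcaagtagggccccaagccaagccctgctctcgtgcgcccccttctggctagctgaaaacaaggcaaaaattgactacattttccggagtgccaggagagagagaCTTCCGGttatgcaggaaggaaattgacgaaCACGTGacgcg
GAR1: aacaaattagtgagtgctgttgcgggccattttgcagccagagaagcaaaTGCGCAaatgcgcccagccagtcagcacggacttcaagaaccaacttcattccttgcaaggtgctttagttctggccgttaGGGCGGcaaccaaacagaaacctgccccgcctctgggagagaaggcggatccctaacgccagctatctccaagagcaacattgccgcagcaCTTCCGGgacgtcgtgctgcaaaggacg
In windows that also take in 50 bases after the start, CACGTG was found in NOP10, beginning 170 and 11 bases before the RefSeq start, and at a second GAR1 start (base 32 after it), and in 7.26% of all 35116 RefSeq windows. It was not found in the windows of DKC1, NHP2 or SHQ1. The SHQ1 window stands at a RefSeq start 13469 bases inside the GENCODE gene, and no window at the outer start was examined here. CCGGAAG was found in GAR1, NOP10 and SHQ1 (10.3% of all windows), TGCGCA in DKC1 and GAR1 (8.24%), CCAAT in NHP2, NOP10, SHQ1 and the second GAR1 start (34.6%) and GGGCGG in all 5 genes matched (45% of all windows). NAF1 was the gene without an entry. A match is a string of letters in these windows and not a measured site.

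Genes that work beside the H/ACA proteins were followed as lists, with 53 genes in all, each of them tested. The box C/D proteins, which carry out the other guided modification of ribosomal RNA, ribose methylation, were called higher in 4 of 4 over both guides (median log2 fold change 0.44). Among them were NOP56 (0.39, SE 0.077), the methyltransferase FBL (0.45, SE 0.0997) and SNU13, which binds the box C/D guide RNA (0.57, SE 0.122). FBL averaged 236 CPM in sgC, 325 CPM in sgZ1 and 323 CPM in sgZ3. Of 8 chaperones of snoRNP assembly 2 were called higher and 0 lower (median 0.19), both of them ATPases of the R2TP-linked complex, RUVBL1 (0.61, SE 0.142) and RUVBL2 (0.44, SE 0.0905). The 6 called genes of both lists had edgeR adjusted p-values of at most 0.00793.

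Of 12 pseudouridine synthases that work without an H/ACA guide, 6 were called higher and 1 lower over both guides (median 0.28). RPUSD1 (0.85, SE 0.109, edgeR adjusted p = 0.000315), PUSL1 (0.94, SE 0.134) and PUS1, which acts on transfer RNA and other RNAs (0.61, SE 0.0914), were higher, while PUS10 fell by 0.59 (SE 0.0886, adjusted p = 0.000736). PUS10 stood at 33.7 CPM in sgC, 23.4 in sgZ1 and 21.3 in sgZ3. Of 12 other enzymes and partners of ribosomal RNA modification 9 were called higher and 0 lower (median 0.41). Among the 9 were the cytosine methyltransferase NSUN5 (0.67, SE 0.121) and the acetyltransferase NAT10 (0.43, SE 0.0796). EMG1, which methylates a pseudouridine of 18S ribosomal RNA, was another (0.63, SE 0.118). The genes of that list not called were METTL5, ZCCHC4 and NOP2, and NOP2 had at most 11 counts per library. NSUN5 has closely similar pseudogenes and its counts are uncertain.

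Telomerase shares the H/ACA core proteins. TERC, the telomerase RNA that carries an H/ACA domain, stood at 1.11 to 2.57 CPM in sgC, 1.03 to 3.19 CPM in sgZ1 and 1.78 to 3.2 CPM in sgZ3, with 21 to 78 counts per library. Its groups overlapped and it was not called (log2 fold change over both guides 0.28, SE 0.341, edgeR adjusted p = 0.544). Poly(A) libraries leave out most RNAs without a poly(A) tail, so these counts may not follow the level of mature TERC. TERT, the reverse transcriptase, had 34 to 57 counts per library and was not called either (0.34, SE 0.209, adjusted p = 0.219). Of the 11 genes of telomerase and Cajal bodies 1 was called higher and 1 lower, ZCCHC8, which takes part in trimming of telomerase RNA (-0.23, SE 0.0764, adjusted p = 0.0345). Between guides 1 gene of that list was called higher in sgZ3 and 4 lower (15.8% of all genes were lower), among the lower ones TCOF1, a nucleolar phosphoprotein (-1.68, adjusted p = 0.00634), and NOLC1, a related protein that binds snoRNPs (-0.68, adjusted p = 0.012), both named after their values were seen. TCOF1 was also lower in sgZ1 replicate 2 (27.3 CPM) than in sgZ1 replicates 1 and 3 (60.1 and 69.7 CPM). In sgZ3 replicate 3 (22.89 CPM) it was higher than in sgZ3 replicates 1 and 2 (12.25 and 13.61 CPM). Of 6 shelterin genes, which cap telomeres, ACD was called higher (0.54, SE 0.094) and TERF1 lower (-0.33, SE 0.106).

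**Figure D4:**
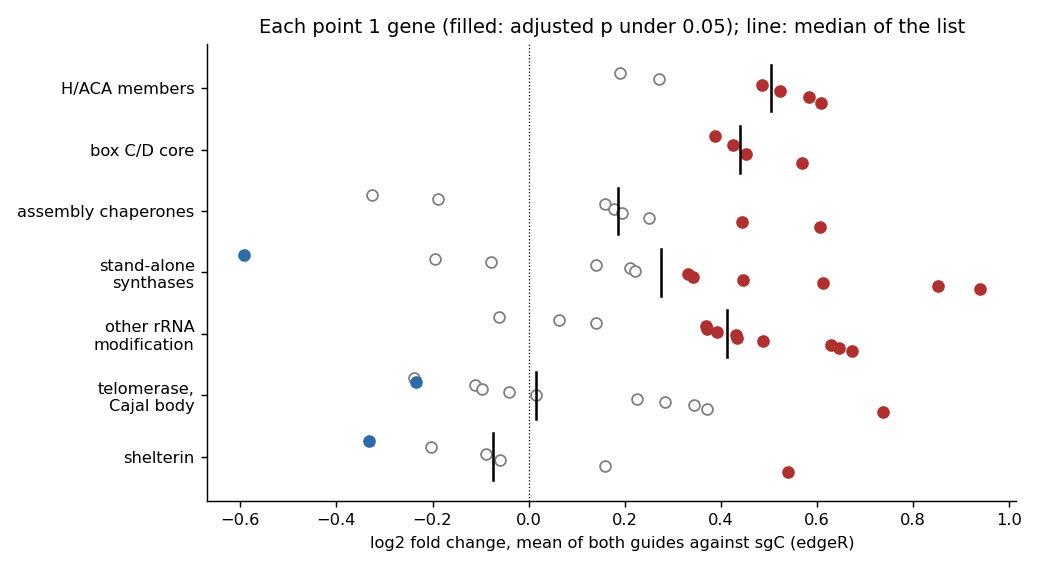
Log2 fold change of each tested gene over the mean of both guides against sgC, by list; filled points (red higher, blue lower) have an edgeR adjusted p under 0.05 and black lines are list medians. The lines stand at 0.50 for the H/ACA genes, 0.44 for the box C/D proteins, 0.19 for assembly chaperones, 0.28 for stand-alone pseudouridine synthases, 0.41 for other ribosomal RNA modification, 0.02 for telomerase and Cajal body genes and -0.07 for shelterin.

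Over these 6 lists 23 of 53 genes were called higher and 3 lower over both guides, beside 18.6% higher and 14.6% lower of all tested genes. Of all 53 genes 25 share exonic bases with a gene on the opposite strand. Of the 26 called, 15 do so, 14 of those called higher and 1 called lower. These 15 are uncertain in the same way as NHP2. Among the genes named above these are RUVBL1, RUVBL2, PUS1, PUSL1, RPUSD1, PUS10, EMG1, SNU13 and ACD.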

How the data were processed

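The authors deposited whole-number counts per gene for 9 poly(A) libraries, with no normalization. Tools named in the submitters' processing notes are DESeq2, HTSeq, SAMtools (1.9) and STAR (2.5.2b); GRCh38, also as hg38, is the build. Which tool did what is not stated there. Annotation release and strand setting: not given in the sources used here. A table of ribosomal RNA entries was not used here. One control sample's description names that table, while its title and molecule place it among the poly(A) libraries.

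In R (4.3.3), edgeR (4.0.16) kept 14732 of 47021 genes by filterByExpr and applied TMM factors. One robust quasi-likelihood model of the 3 groups, fitted to the 9 libraries, gave log2 fold changes and Benjamini-Hochberg adjusted p-values, called under 0.05. SE is the absolute log2 fold change over the square root of the F statistic. Log2 CPM used a prior count of 2. Exon lengths (the union of a gene's annotated exons) and GC content came from GENCODE 29 (GRCh38), which holds 99.2% of tested gene IDs. The steps were tested on simulated data. The 6 genes and the lists were chosen with earlier results of these data known. Named genes are the 6 members, ZNF692, from each list at most 3 called genes per direction (lowest adjusted p first), and the 3 genes nearest to each member; any other is named beside its reason. The values of 1 called gene of the telomerase list are not reported here. Alternatives were DESeq2 (1.42.0), other size factors and filters, a threshold of 0.01, fits of compared groups only, length and GC offsets, the replicate number as a block, and left-out libraries.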

Additional observations from a re-analysis of the deposited data

How the results depend on the processing

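The calls of DKC1 and NAF1 against sgC held under every alternative run. The number of the 6 genes called higher in sgZ1 was 4 and ran from 2 to 4 when single libraries were left out, lowest without sgC replicate 1 or 3. The share of all genes called in sgZ1 was also lower there, 14.0% without sgC replicate 1 and 16.4% without sgC replicate 3, against 25.8% with all libraries. Between guides 0 genes were called. With gene length and GC offsets 1 was called higher in sgZ3 (43.1% of all genes were called), with these offsets and the replicate block 3 (47.4%), and without both sgZ1 replicate 2 and sgZ3 replicate 3 there were 2 higher and 1 lower (53.2%). Leaving out single libraries gave 0 to 1 higher (NOP10, without sgZ3 replicate 3) and 0 to 1 lower (GAR1, without sgZ1 replicate 2). In these fits 41.0% and 36.9% of all genes were called between guides. The cause of these shifts was not tested. The sgZ3 value of GAR1 changed sign with library totals alone (-0.087), length and GC offsets (-0.076) and these with the replicate block (-0.069). Between guides the sign changed with library totals alone for DKC1 (-0.0073) and SHQ1 (-0.032), and SHQ1 ran from -0.034, without sgZ1 replicate 3, to 0.15 when single libraries were left out. In the related lists 3 genes were called lower over both guides, 5 with library totals alone and 1 at a threshold of 0.01. Of all genes 33.2%, 35.0% and 15.5% were called in either direction under these settings. Of those calls 56%, 36.6% and 61.9% were higher.

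Whether replicate numbers pair the libraries was not settled. Deviations of same-numbered libraries correlated above 0.1 in 3 of 9 pairs (-0.121 to 0.249). Those of differently numbered libraries ran from -0.259 to 0.202. With the replicate block alone 4 members were called higher over both guides, 4 in sgZ1 and 5 in sgZ3. Of all genes 37.3%, 28.5% and 40.6% were called in these comparisons, against 33.2%, 25.8% and 36.3% without the block. Over both guides that was 5488 genes against 4885. Over the alternatives the total of genes called ran from 2201 (without sgC replicate 1) to 7409 over both guides. It ran from 2005 to 5894 in sgZ1 (3807 as reported), from 2609 to 8246 in sgZ3 (5355) and from 2254 to 7932 between guides (4209). The lowest of these 3 came at a threshold of 0.01, and all 4 highest without both sgZ1 replicate 2 and sgZ3 replicate 3. Between guides 44.7% of calls were higher in sgZ3, 27% with library totals alone and 71.6% with length and GC offsets.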
